A study of Populus tremula with 16 samples.

Results

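A stretch of neighbouring gene IDs, Potri.013G137500 to Potri.013G143000, held the most abundant ID of aspen leaves and was described through autumn 2011. Members were all IDs with numbers in that range and at least 10 counts summed over the 16 libraries, which gave 51 of the 56 IDs of the range and 51 of the 41335 IDs in the table. Its limits were chosen by measured values, the summed counts and the decline of these counts over the same dates, so the decline is given as a description, and nothing is read from the counts of members called lower in the fits across all IDs. Of the members, 9 lay between Potri.013G139200 and Potri.013G140100 and are called the core. The other 42 are called the flanks, with 16 IDs below the core and 26 above it.

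The leaves were those of Populus tremula, the European aspen, and the labels give 1 RNA sequencing library for each of 16 dates between 27 July and 1 October 2011. The labels name no treatment or genotype, and they do not say from which or how many trees the leaves came. By the calendar, the 4 dates up to 31 August are called early, the 6 dates from 2 to 15 September middle, and the 5 dates used from 18 September on late. The library of 19 September differed from that of 18 September by less than the sampling noise (scatter 0.618 times that of binomial sampling, against 1.82 in the next closest pair). Of the 18378 IDs with a count on 19 September, 0 were higher than on 18 September. Both libraries were therefore counted as 1 sample, and the deeper one was used. Library totals ranged from 719419 counts on 11 September to 6729131 on 5 August.

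In autumn a leaf is taken apart in an ordered way before it is shed. Chloroplasts are dismantled, photosynthesis declines, and nitrogen and other nutrients are moved back into the stem. Transcripts that a green leaf holds in large amounts commonly decline in this process, while others, such as those for breakdown and transport, increase. In the ID scheme used here, the digits before the letter G name the chromosome and the digits after it follow the order of genes along it. Close numbers thus stand for neighbours on chromosome 13 of the annotated genome behind these IDs. Whether the sampled trees have the same gene order was not checked. The files do not pair the IDs with gene names, so members are ordered by position and no role is given to any of them. No genome was used here, and it was not checked whether reads counted under these IDs also match other places in the nuclear or the chloroplast genome. A value is therefore a count assigned to an ID, and it is not shown to be the level of a nuclear gene at that position. For lack of gene names the leaf identity of the samples was not checked against marker genes.

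Levels are given on 2 scales. A share is the percentage of all counts of a library. CPM is the count scaled to a common library size with TMM, the trimmed mean of M values, which sets libraries level over most IDs. The TMM library size was below the total in the 4 early libraries and on 5 September and above it in the 10 others, and in summer the CPM of the members together exceeded the common library size. Neither scale is divided by gene length, so levels are compared between dates and not between genes. In whole leaf tissue, fewer cells of a type and less RNA per cell cannot be told apart.

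As a share of counts, both the core and the flanks declined, and the flanks went to a smaller part of their early share. The flanks together took 0.357%, 0.429%, 0.369% and 0.401% of the counts on 27 July and on 5, 19 and 31 August. In the middle period their lowest, median and highest shares were 0.264%, 0.296% and 0.344%. They stood at 0.229%, 0.187%, 0.14%, 0.0728% and 0.0684% on 18, 22, 26 and 28 September and 1 October, and each of these was below every earlier library. The 1 October value came from 518 counts, and its 95% Wilson interval, for counting error alone, ran from 0.0628 to 0.0746%. The mean share of the early libraries was 0.389 ± 0.0323% (SD, n = 4). That of the middle libraries was 0.298 ± 0.0312% (SD, n = 6), and that of the late libraries 0.139 ± 0.0703% (SD, n = 5), so that the late mean was 0.358 times the early one. Nearly all counts of the core came from 4 IDs, and the 5 others together took a mean of 0.0666% early and 0.00745% late. The core as a whole took 72.3 ± 0.48% early (SD, n = 4) and 66.8 ± 1.8% in the middle period (SD, n = 6). It then went from 63.2% on 18 September and 58% on 26 September to 29.9% on 28 September and 24.1% on 1 October. Its late mean was 0.652 times the early one. These ratios depend on the scale. In summed CPM the late mean was 0.354 times the early one for the core and 0.196 times for the flanks, and per count outside the 10 most abundant IDs the ratios were 0.312 and 0.176. All of them rest in part on the last 2 dates, which were the lowest libraries of the core and of the flanks. Without these 2 dates the ratios of shares were 0.837 for the core and 0.476 for the flanks.

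**Figure D1:**
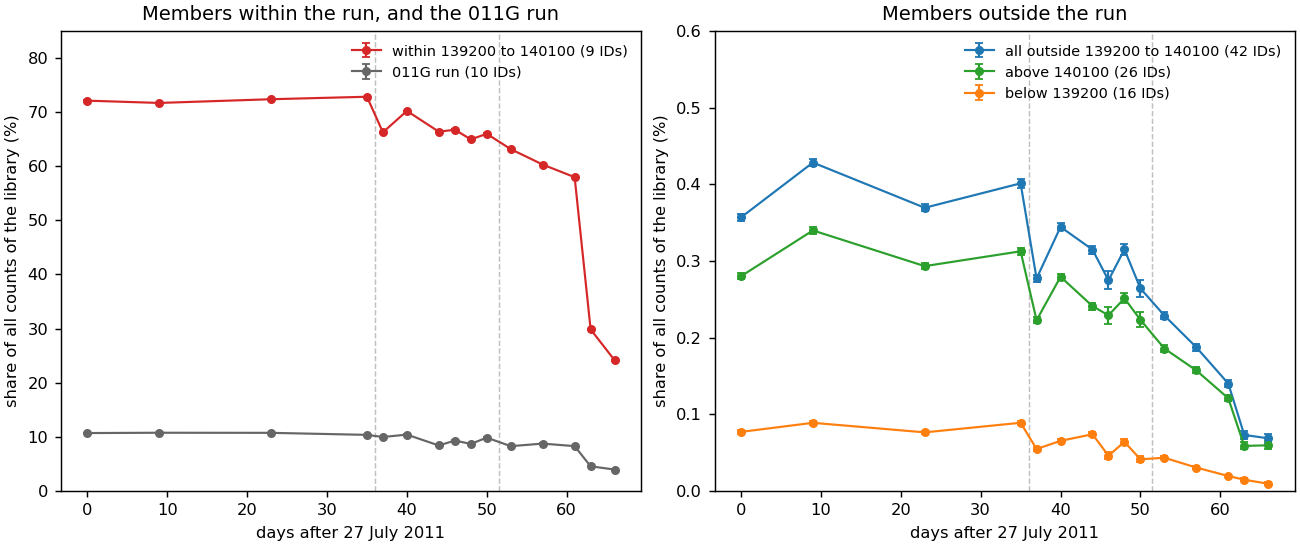
Share of all counts of a library (%, linear axis from 0) against days after 27 July, for the core and a comparison run under the prefix 011G (left) and for the flanks (right). Points are libraries, bars are 95% Wilson intervals of counting error, and dashed lines divide the 3 periods. From day 50 on, the shares of both the core and the flanks decline at each date. The core has 58% of the counts on day 61 and 29.9% on day 63. The intervals of the flanks on days 63 and 66 overlap.

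Counts of the flanks per 1000 counts of the core compare both groups within a library, where scaling cancels. This ratio was 4.95, 5.97, 5.1 and 5.51 on the 4 early dates. It had a median of 4.46 in the middle period, between 4 and 4.9. It was 3.62, 3.1, 2.41, 2.44 and 2.83 on the 5 late dates, below every middle and early library, and its late mean was 0.535 times the early mean. The lower flank made up 20.6 to 22.1% of the flank counts early, 15.5 to 23.4% in the middle period and 13.3 to 19.7% late, so late libraries lay below the early ones but overlapped with the middle ones.

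Within the core, 4 IDs held nearly all the counts, and in CPM each was below its early level in the middle period and lowest on the last 2 dates. They were Potri.013G140100, Potri.013G139800, Potri.013G139900 and Potri.013G139200, and together they took 72.2 ± 0.478% of all counts early (SD, n = 4) and 47.1 ± 18.6% late (SD, n = 5). Potri.013G140100 stood at 759662, 739778, 755954 and 755638 CPM on the early dates. It ran from 373981 to 593000 CPM in the middle period, with a median of 421193. It stood at 380780, 334419, 330043, 112400 and 95968 CPM on the late dates. The early libraries had a coefficient of variation of 1.17%, and all middle libraries lay below them. The first 3 late libraries were at 43.8 to 50.6% of the early mean, and the last 2 at 14.9% and 12.7%.

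Potri.013G139800 stood at 191796, 195578, 206110 and 204066 CPM on the early dates. Its middle libraries ran from 95256 to 152911 CPM with a median of 113126. Its late libraries held 115139, 95759, 108085, 52867 and 37067 CPM. From 9 to 26 September this ID thus moved between 48% and 60.6% of its early mean CPM with no steady direction. As a share of counts it held 12.7 to 13.6% early, 9.79% on 2 September and 12.6% on 5 September. From 9 to 26 September its share was 11.7 to 12.9%. On the last 2 dates its share was 7.89% and 5.68%. Its neighbour Potri.013G139900 kept close to it, with 53.5%, 45.5%, 50.7%, 25.8% and 18.1% of its early mean on the late dates against 57.7%, 48%, 54.2%, 26.5% and 18.6%. The SD of the log2 ratio of these neighbours over the 15 libraries was 0.08, against 0.28 for Potri.013G139800 and Potri.013G140100.

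Potri.013G140100 lost ground to Potri.013G139800 and Potri.013G139900 at the end. It held 68.7 to 70% of the counts of these 4 IDs on the early dates and 65.1 to 67.9% from 18 to 26 September. It held 56.2% on 28 September and 60.9% on 1 October, the lowest values of all 15 libraries. The highest was 73.8% on 2 September, when Potri.013G139800 was at its lowest part of 14.8%. Potri.013G139200, far fewer in counts, stood at 5854, 5328, 6280 and 5970 CPM early and at 3018, 2624, 2661, 1175 and 1000 CPM late. Its middle libraries ran from 2607 to 4895 CPM, and 15 September with 4200 CPM was the second highest of them. As a share of counts, its 0.458% on 15 September was the highest of all 15 libraries.

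**Figure D2:**
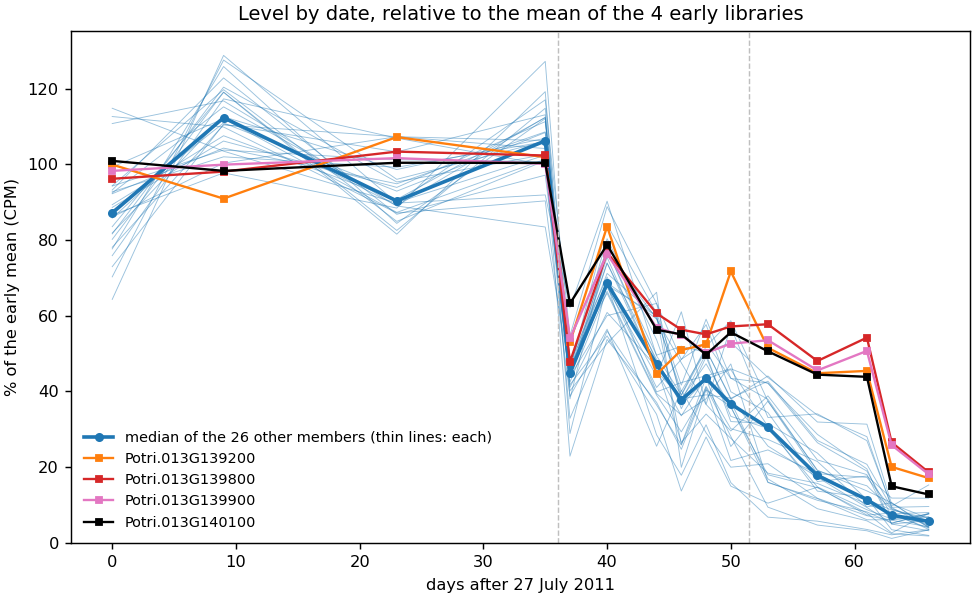
Level of 30 members by date, as % of the mean of the 4 early libraries (CPM, linear axis from 0), against days after 27 July. Squares are the 4 IDs with the most counts, thin lines the 26 other members with at least 1000 counts, and circles their median. The 4 IDs keep a median of 48.1% on day 61, where the median of the others is 11.4%.

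The other tested members of the core had larger fitted changes from early to late than these 4 IDs, although they are interleaved with them. In the first step Potri.013G139400 kept with the 4 IDs, with a middle mean at 58.6% of the early one against 57.5 to 59.8%. Potri.013G140000 lies by number between Potri.013G139900 and Potri.013G140100 and was the member with the largest fitted change. It stood at 584, 886, 827 and 906 CPM early, from 127 to 547 CPM in the middle period with a median of 229.7, and at 54.1, 45.6, 28.1, 16.7 and 27.6 CPM late. The groups did not overlap, and the fitted log2 change from early to late was -4.53 (SE 0.46), against -1.59 (SE 0.54) for Potri.013G140100. Per 1000 counts of Potri.013G140100 it had 0.769 to 1.2 counts early and 0.085 to 0.288 late. Potri.013G139500 went from a mean of 134 ± 19.6 CPM early (SD, n = 4) to 16.6 ± 15.4 CPM late (SD, n = 5). Its late libraries held 41.2, 18.3, 16, 4.61 and 2.59 CPM, the last from 3 counts. Potri.013G139400 went from 44.9 ± 5.19 to 7.87 ± 5.53 CPM, and Potri.013G139600 from 21.5 ± 2.64 to 1.97 ± 1.62 CPM, with 0 counts on 28 September, where up to 1.73 CPM would be allowed by 3 counts. Potri.013G139300 had 24 counts early, 13 in the middle period and 0 late and did not pass the filter on low counts.

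In the flanks, 3 IDs above the core held most of the counts, and their fitted changes were smaller than those of the other 20 flank IDs with at least 1000 counts. Potri.013G141000 stood at 1138, 1253, 1222 and 1216 CPM early, from 599 to 933 CPM in the middle period with a median of 633, and at 527, 407, 339, 113 and 116 CPM late. Potri.013G141800 stood at 983, 1146, 1225 and 1214 CPM early, from 433 to 876 CPM in the middle period with a median of 541, and at 503, 364, 358, 117 and 73.3 CPM late. Potri.013G142100 stood at 707, 745, 568 and 532 CPM early, from 233 to 431 CPM in the middle period with a median of 324, and at 211, 217, 172, 61.7 and 97.4 CPM late. Late libraries lay below all early ones for these 3 IDs, as for 24.3% of all tested IDs, but overlapped with the middle ones for Potri.013G141800. The fitted log2 changes were -2.0 (SE 0.41), -2.01 (SE 0.45) and -2.07 (SE 0.36).

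The next flank IDs by counts had larger fitted changes, of -2.25 to -3.74 log2 units among those with at least 5000 counts. Potri.013G141400 stood at 151, 244, 164 and 218 CPM early and at 32.7, 17.4, 11.2, 4.61 and 3.45 CPM late, with a change of -3.74 (SE 0.49). Potri.013G142200 went from 286 ± 56.3 CPM early (SD, n = 4) to 26.7 ± 12.5 CPM late (SD, n = 5), a change of -3.41 (SE 0.35). Below the core, Potri.013G138800 stood at 307, 347, 316 and 361 CPM early and at 81.6, 60.7, 37.9, 24.8 and 12.9 CPM late, a change of -2.91 (SE 0.46). Its middle libraries were uneven, with 220 CPM on 9 September and 66.4 CPM on 11 September. Potri.013G138200 had the largest fitted change of the flanks, -4.35 (SE 0.39), from 41.4, 61.1, 48.4 and 52.1 CPM early to 4.77, 2.37, 1.6, 0.577 and 1.72 CPM late, where the last 2 values came from 1 and 2 counts. Further flank IDs among the 20 with the most counts are given by their means. Below the core, Potri.013G138900 went from 267 ± 28.1 CPM early to 55.5 ± 40.6 CPM late, and Potri.013G139000 from 134 ± 15.2 to 21.8 ± 14.4 CPM (SD, n = 4 and 5, here and in the next sentences). Potri.013G138100 went from 165 ± 21.6 to 16.4 ± 11 CPM, Potri.013G139100 from 81.9 ± 9.41 to 13.9 ± 10.3 CPM, Potri.013G137600 from 81.7 ± 4.55 to 14.2 ± 11.8 CPM and Potri.013G138000 from 78.2 ± 14.7 to 13.5 ± 9.91 CPM. Above the core, Potri.013G142300 went from 112 ± 13.1 to 14.6 ± 9.35 CPM, Potri.013G142400 from 91.9 ± 12.3 to 12.4 ± 9.09 CPM and Potri.013G141300 from 88.8 ± 19.6 to 9.0 ± 5.41 CPM. All late libraries lay below all early ones for each of these 9 IDs, as they did for 24.3% of all tested IDs. Among the 30 members with at least 1000 counts, a limit set after the data were seen, the 7 with the most counts were also the 7 with the smallest fitted changes. The member next by counts, Potri.013G140000, had the largest change.

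**Figure D3:**
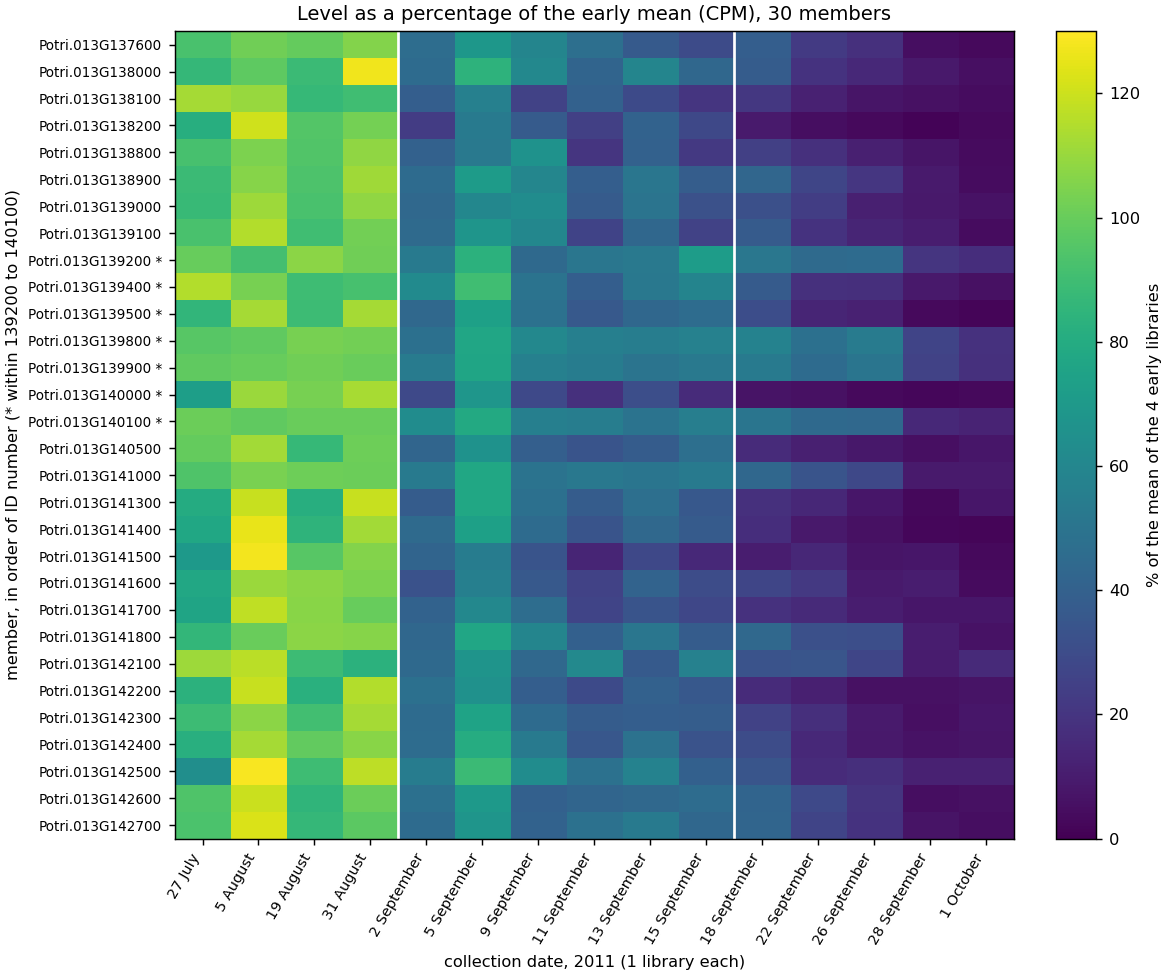
Level of the 30 members with at least 1000 counts (rows, in order of ID number, core marked by asterisks) on the 15 dates (columns), coloured from 0 to 130% of the mean of the 4 early libraries (CPM). White lines divide the 3 periods. The 4 IDs with the most counts stay lighter than their neighbours from 18 to 26 September, and 5 September is lighter than 2 September in all 30 rows.

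The 30 members were also compared, in CPM, in the successive steps of the autumn. For the 4 IDs with the most counts, the mean of the middle period was 57.5 to 59.8% of the early mean, and the mean of 18 to 26 September was 77.4 to 90.5% of that of the middle period. The last 2 dates then held 29.9 to 43.9% of the level of 18 to 26 September. For the 26 others the medians of these steps were 47.6%, 40.1% and 35.5%. Both groups lay farthest apart in the step from the middle period to 18 to 26 September, where the ranges did not overlap (16.6 to 69.5% for the others). On 15, 18, 22 and 26 September the others had a median of 36.6%, 30.5%, 17.8% and 11.4% of the early mean. The 4 IDs had 56.4%, 52.5%, 45.2% and 48.1%. Over all 2847 tested IDs with at least 1000 counts, the medians of the steps were 109%, 127% and 90.3%. Of the 26 others, 13 stayed below 50% of their early mean from 9 September on, and all 26 did so from 18 September on. Of the 4 IDs, 2 stayed below 50% from 22 September on and 2 from 28 September on. A level below 10% was reached and kept by 24 of the 26 and by 0 of the 4 IDs.

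On 2 September all of the 30 members stood below both 31 August and 5 September in CPM. On 2 September the 4 IDs stood at 46.7 to 63% and the 26 others at 22.3 to 67.6% of their CPM on 31 August. On 5 September each of the 30 was higher again, at 1.25 to 2.37 times its level of 2 September. Among all tested members, 39 of 41 were higher on 5 than on 2 September, where 50% of all tested IDs were. As shares of counts, 38 of 41 were higher, where 31% of all tested IDs were. As shares, 29 of the 30 were below 31 August on 2 September, but the step was smaller on this scale. The 26 others had a median of 63.6% of their share on 31 August, and the 4 IDs ranged from 72.2 to 97.5%. With 1 library per date, a state of the leaves and a state of the library cannot be told apart.

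The summer libraries differed little for the IDs with the most counts. Over the 4 early libraries the coefficient of variation was 1.17 to 6.77% for the 4 IDs, with a median of 14.6% for the 26 others and of 18.8% for all tested IDs with at least 1000 counts. The low early library was 27 July for 20 of the 30 members, and the high one was 5 August for 16 of them. Potri.013G142500, for example, went from 64.3% of its early mean on 27 July to 129% on 5 August.

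The ratio of the counts of 2 members over the dates was set against binomial sampling for all pairs of the 30. This measure depends on depth, since at few counts a change of the ratio can stay within sampling error. Of the 10 pairs with the lowest scatter, 3 were next to each other among the members. The share of such neighbours among all pairs was not set beside this count, so nothing is read from it. Potri.013G142600 and Potri.013G142700 had 6622 and 6790 counts over the 15 libraries, and the scatter of their ratio was 0.817 times that of binomial sampling. Their early means were 222 and 227 CPM, and their late libraries held 93.4, 63.5, 43.3, 11 and 12.9 CPM against 95.9, 60.1, 43, 16.1 and 11.2 CPM. The SD of their log2 ratio was 0.18. Potri.013G142300 and Potri.013G142400 had a scatter of 0.904 with an SD of 0.18, and Potri.013G139000 and Potri.013G139100 one of 1.04 with an SD of 0.26. Potri.013G140500 and Potri.013G142200, which lie apart by number, had a scatter of 1.01 with an SD of 0.21. Over the 10 pairs the SD of the log2 ratio ran from 0.18 to 0.55, so a low scatter here does not show constant proportions. A scatter under 2 was found for 25 of the 435 pairs of these 30 members, and the median pair had 8.59. The counting of reads with more than one matching place is not stated in the sources, so values of single neighbours are uncertain.

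For the fits across all IDs, 41 of the 51 members passed the filter on low counts, 8 in the core and 33 in the flanks. The 10 others had 11 to 111 counts over the 15 libraries and together 202 early, 108 middle and 34 late counts. From early to late leaves, 41 of the 41 tested members were called lower at an adjusted p of 0.05 with edgeR (quasi-likelihood test), where 28.9% of all tested IDs were. Nothing is read from this count or from those of the other period comparisons, since the stretch was chosen for its fall over the same libraries. The median log2 change was -2.0 in the core and -2.47 in the flanks, against 0.01 over all tested IDs. Within the core it was -1.43 for the 4 IDs with the most counts and -3.13 for the 4 other tested IDs, so the core lay on both sides of the flanks. All late libraries lay below all early ones for the 41 members, which held for 24.3% of the tested IDs. With library totals alone in place of TMM, the median of all tested IDs moved to 0.92 and those of the core and the flanks to -1.13 and -1.61, with all 41 members still below 0.

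From early to middle leaves, 8 of 41 members were called lower by edgeR, where 2.14% of all tested IDs were, and 0 were called higher. They were Potri.013G140000 in the core and Potri.013G138100, Potri.013G138200, Potri.013G140500, Potri.013G141500, Potri.013G141600, Potri.013G141700 and Potri.013G142200 in the flanks. Among them, Potri.013G141500 went from 73.3 ± 17.4 CPM early (SD, n = 4) to 22.8 ± 11.6 CPM in the middle period (SD, n = 6), Potri.013G141600 from 87.3 ± 12.9 to 32.4 ± 9.29 CPM, Potri.013G141700 from 75.5 ± 13.3 to 29.8 ± 9.84 CPM and Potri.013G140500 from 55.7 ± 5.65 to 24.8 ± 6.49 CPM. The middle libraries lay below all early ones for 31 of 41 members, against 6.13% of the tested IDs. The count of 8 depended on single libraries. Leaving out 27 July gave 3, 5 August 0, 19 August 3 and 31 August 5. Leaving out 9 September gave 4, 11 September 5, 13 September 4, 15 September 4 and 18 September 13. It was 0 with period limits 1 date later or earlier, 18 by DESeq2, 3 with library totals alone and 35 without the last 2 dates in the fit.

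From middle to late leaves, 34 of 41 members were called lower by edgeR, where 23.3% of all tested IDs were. The 7 that were not called were the 4 IDs with the most counts and Potri.013G137700, Potri.013G138500 and Potri.013G142000, with log2 changes from -0.52 to -1.17. All late libraries lay below all middle ones for 19 of 41 members, against 11.1% of the tested IDs. Whether the 4 IDs changed less than the others in this step was not tested. No member was called higher in any of the 3 comparisons by edgeR, where 2.41%, 24.4% and 29.3% of all tested IDs were, and at an unadjusted p under 0.05 the count of higher members was also 0, as it was by DESeq2 from early to late.

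IDs called lower in late leaves continued past both edges of the stretch. Just below it, Potri.013G136600, Potri.013G136700 and Potri.013G137000 had 19545, 4058 and 1859 counts and log2 changes of -2.72, -2.94 and -2.40, and the nearest tested ID, Potri.013G137300, had 3029 counts and a change of -1.38. The first tested members inside had -2.45 (Potri.013G137600), -1.59 (Potri.013G137700), -1.78 (Potri.013G137800) and -2.49 (Potri.013G137900). Just above it, Potri.013G143300 and Potri.013G143400 had 372 and 245 counts and changes of -1.85 and -3.02. The last tested members inside, Potri.013G142500, Potri.013G142600, Potri.013G142700 and Potri.013G142800, had changes of -2.38, -2.29, -2.31 and -2.37. Farther up, Potri.013G143900 had -1.34, Potri.013G144000 had -0.89 and Potri.013G144100 had 0.52. Of the 31 tested neighbours within 5000 numbers on either side, 18 were called lower and 4 higher by edgeR, where 28.9% and 29.3% of all tested IDs were. The median change was -1.67 for the 13 below the stretch and -1.08 for the 18 above it.

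**Figure D4:**
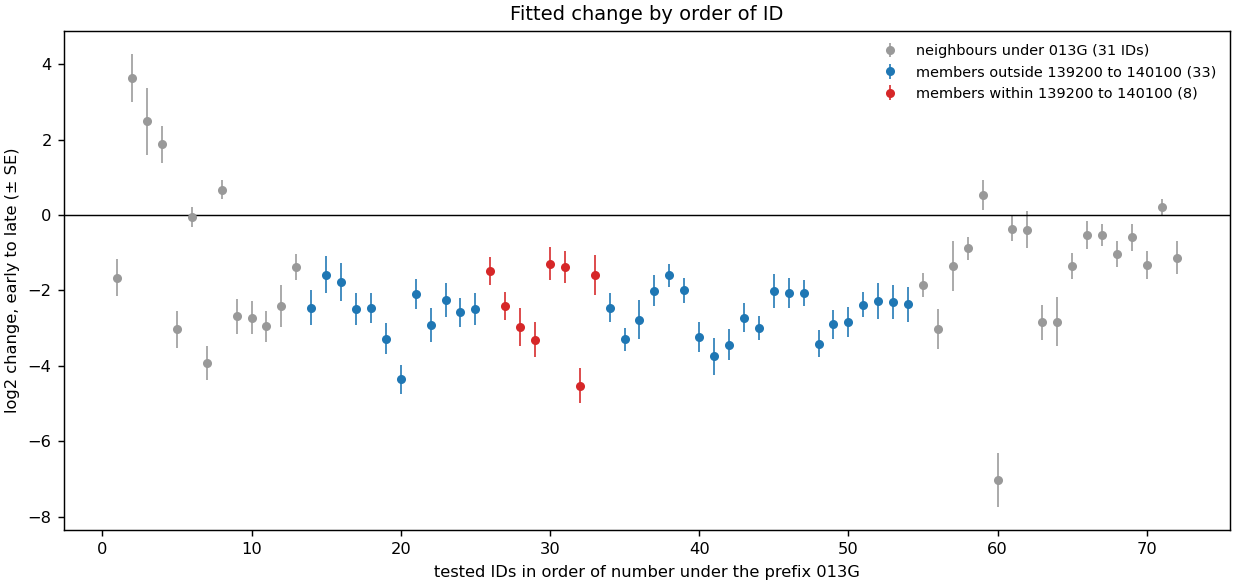
Fitted log2 change from early to late (edgeR, bars are ± SE, linear axis) for tested IDs in order of number under the prefix 013G. Red points are the core, blue points the flanks and grey points neighbours outside the stretch. All 41 members lie below 0, and 25 of the 31 neighbours do.

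The run Potri.011G074100 to Potri.011G075000, the other run among the most abundant IDs, served as a comparison. It held 10.6 ± 0.185% of the counts early (SD, n = 4) and 6.73 ± 2.31% late (SD, n = 5). Relative to its early mean, its summed CPM on the late dates was 46.4%, 44.5%, 45.1%, 19% and 16%, against 52.2%, 45.2%, 46.5%, 18.4% and 14.5% for the core and 35.1%, 26.1%, 20.9%, 8.33% and 7.62% for the flanks. On 2 and 5 September it stood at 60.5% and 78.7%, and the core at 59.2% and 78.1%. By these sums the 011G run lay nearer to the core than the flanks did on each of the 5 late dates, which is a description of sums led by a few IDs.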

How the data were processed

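Raw counts per gene ID were deposited by the authors, and the 16 single library tables held the same counts as the joint table. The aligner STAR 2.4 and the counter HTSeq are named in the submitters' processing notes, beside CASAVA 1.8.2, Trimmomatic 1.0 and FastQC 1.0. Of the genome build, annotation, strand setting and treatment of reads with several places, nothing was stated. The members, lists and periods were chosen with earlier results of these data known. The raw counts of 15 libraries were fitted with edgeR 4.0.16 in R 4.3.3 (filterByExpr with minimum count 10 and minimum total 15, TMM, glmQLFit, glmQLFTest) in 1 fit of the 3 periods over 15583 IDs, with Benjamini-Hochberg adjustment over all of them and calls at 0.05. SEs are the change over the root of F. The fit was also run on simulated counts of independent libraries, which checks the code and not the use of dates as replicates.

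Library totals ranged from 719419 to 6729131 counts, and 3 counts, the most that a count of 0 allows, were 0.61 to 3.76 CPM. Wilson intervals cover counting error only. Dates stood in for replicates, and neighbouring dates may resemble each other, so p-values cannot be taken at face value. Whether they are too small or too large was not tested. Members named with values were the 8 core IDs with at least 100 counts, the 20 flank IDs with the most counts and the tested IDs at both edges; others named, such as those of the period counts, were chosen after their values were seen. The rule also asked for flank IDs with a change above 0, of which there was none. Alternatives were DESeq2 1.42.0, other scalings, no filter, other period limits and left out libraries.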

Additional observations from a re-analysis of the deposited data

Results flagged for a closer look

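Values of the 28 named members and of the shares of core and flanks were checked in each period, 90 groups in all, for a highest or lowest library whose gap to the next exceeded Dixon's 95% critical value. In 9 groups 1 did, and each time it was 5 September, the highest library of the middle period. Chance alone gives about 1 in 20 such groups, and these groups share their libraries. The levels were 99.1 CPM for Potri.013G139500 (nearest 65), 99522 CPM for Potri.013G139900 (nearest 74137), 547 CPM for Potri.013G140000 (nearest 249.6), 933 CPM for Potri.013G141000 (nearest 645), 68.8 CPM for Potri.013G141300 (nearest 42.4), 144 CPM for Potri.013G141400 (nearest 88.2), 84.4 CPM for Potri.013G142300 (nearest 51.1) and 156 CPM for Potri.013G142600 (nearest 107). The core's share of counts was 70.3% on that date, with 66.8% in the nearest library.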

How the results depend on the processing

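Of 195 recomputed values, not counting 21 ratios that use none of the libraries left out, 177 were labelled the same. For ratios and median log2 changes this meant the same direction and a value within the spread of the late libraries, and 0 of them reversed. For counts of members called it meant within 1.5 times the count, and a count could not reverse. The count called higher from early to late was 0 in every setting, so its label carries no weight. Per count outside the 10 most abundant IDs, the late over early ratio was 0.312 for the core and 0.176 for the flanks. With library totals alone the median log2 changes were -1.13 and -1.61, and 3 members were called lower from early to middle. That count was 0 with period limits 1 date later and 0 with limits 1 date earlier, 35 without 28 September and 1 October, and 18 by DESeq2. Without 1 library at a time it ranged from 0 to 13, while 32 to 36 members were called lower from middle to late, 41 to 42 from early to late and 0 higher. The ratio of shares ranged from 0.596 to 0.731 for the core and from 0.301 to 0.404 for the flanks, and the median log2 change from -2.36 to -1.82 and from -2.98 to -2.30. Without both 28 September and 1 October, the ratios were 0.837 and 0.476 and the median changes -1.57 and -2.13, outside these ranges. They still counted as within the spread of the late libraries, which includes these 2 dates. Leaving out 2 and 5 September, chosen after the data were seen, gave 10, 27 and 40 lower members in the 3 comparisons. The cause of these differences was not tested.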
